A study of Mus musculus with 8 samples.

Results

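B-cell and plasma-cell genes were followed in CD8+ T-cell fractions that had been separated by IL-18Rα. The set held 9 genes of the 47493 listed, chosen by gene symbol: *Cd79a*, *Cd79b*, *Ms4a1*, *Pax5*, *Vpreb1*, *Jchain*, *Mzb1*, *Sdc1* and *Tnfrsf17*. All 9 were found. RNA was sequenced from 4 female C57BL/6 mice, aged 6 to 8 weeks, and each mouse gave 2 libraries, 1 IL-18Rαhi-enriched and 1 of the flow-through that the column did not retain. All 4 mice shared the same treatment: 200000 B16F10 melanoma cells on day 0, 300 mg/kg cyclophosphamide on day 3, 2000000 Thy1.1 Pmel-1 T cells on day 5 with 10000 IU of human IL-2 daily for 3 days, and 200 μg of the CD4-depleting antibody GK1.5 on days 10, 17 and 24. On day 25, endogenous CD8+ T cells, which lack Thy1.1, were prepared from inguinal lymph nodes and spleen by bead-based CD8 isolation and removal of Thy1.1-bearing cells, and IL-18Rαhi cells were then pulled out with a labelled antibody and beads. The study compared the fractions to describe the expression profile of IL-18Rαhi cells. Both fractions came from beads and neither was sorted by flow cytometry, and no B-cell sample was among the libraries.

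B cells carry an antigen receptor made of surface immunoglobulin and the signaling chains CD79A and CD79B, and the transcription factor PAX5 keeps them in the B lineage. When a B cell becomes a plasma cell, PAX5 and most surface B-cell proteins are shut down, and the cell turns to secreting antibody. Plasma cells assemble polymeric IgM and IgA with the J chain, fold them with help from MZB1, carry syndecan-1 (CD138) at the surface and receive survival signals through the receptor BCMA, the product of *Tnfrsf17*.

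*Jchain* was by far the most abundant of the 9 genes, and the precursor gene *Vpreb1* was near the detection limit. The mean *Jchain* level was 723.4 ± 400.8 FPKM for flow-through libraries and 1028 ± 423.9 FPKM for enriched ones (SD, n = 4 each), where FPKM counts sequenced fragments relative to transcript length and library depth. *Jchain*, *Mzb1*, *Sdc1*, *Tnfrsf17* and *Cd79b* were higher in the enriched fraction in 4 of 4 mice. So were the T-cell genes *Cd3e*, *Cd3g*, *Cd8a*, *Lck* and *Zap70*, whereas *Cd3d*, *Cd247* and *Cd8b1* were higher in 2 of 4. The share of all tested genes that rose in 4 of 4 mice is not given here. *Cd79a*, *Ms4a1* and *Pax5* were higher in 2 of 4 mice. None of the 9 genes separated the fractions, because the libraries of each fraction overlapped for every gene, whereas over all 12166 genes tested 16.4% were higher without overlap and 15.9% were lower without overlap.

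The genes were tested with limma on log2(FPKM + 1), keeping genes whose 8 libraries averaged 1 FPKM or more, which 7 of the 9 did. With libraries treated as independent, 0 of the 7 genes passed a Benjamini-Hochberg adjusted p of 0.05 in either direction, against 14.1% of all tested genes higher and 13.7% lower, and 1 had an unadjusted p under 0.05. With the mouse as a block, which compares the fractions within mice, 5 of the 7 were higher and 0 lower, against 22.2% of all tested genes higher and 22.7% lower. The median log2 fold change was 0.47 for the 7 genes, -0.02 for all tested genes and 0.38 for 8 CD8 T-cell identity genes. Fewer cells of a type and less RNA per cell cannot be told apart in these bulk libraries.

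A single library stood apart. In the flow-through of mouse 1, the summed level of 8 CD8 T-cell identity genes was 1280 FPKM, against 2048 to 2427 in the other flow-through libraries and 2403 to 2578 in the enriched ones, and the sum of 11 erythroid genes was 3908 FPKM, the highest of the 8 libraries. Results are therefore also given without mouse 1 and after T-cell scaling, in which each library was divided by the geometric mean of the 8 identity genes. That scaling factor was 0.567 in this library and 0.905 to 1.15 in the other 7, and the median fold change (log2) over all tested genes moved from -0.02 to -0.33. By the low values of the table, the libraries held about 14700000 to 17300000 fragments.

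**Figure D1:**
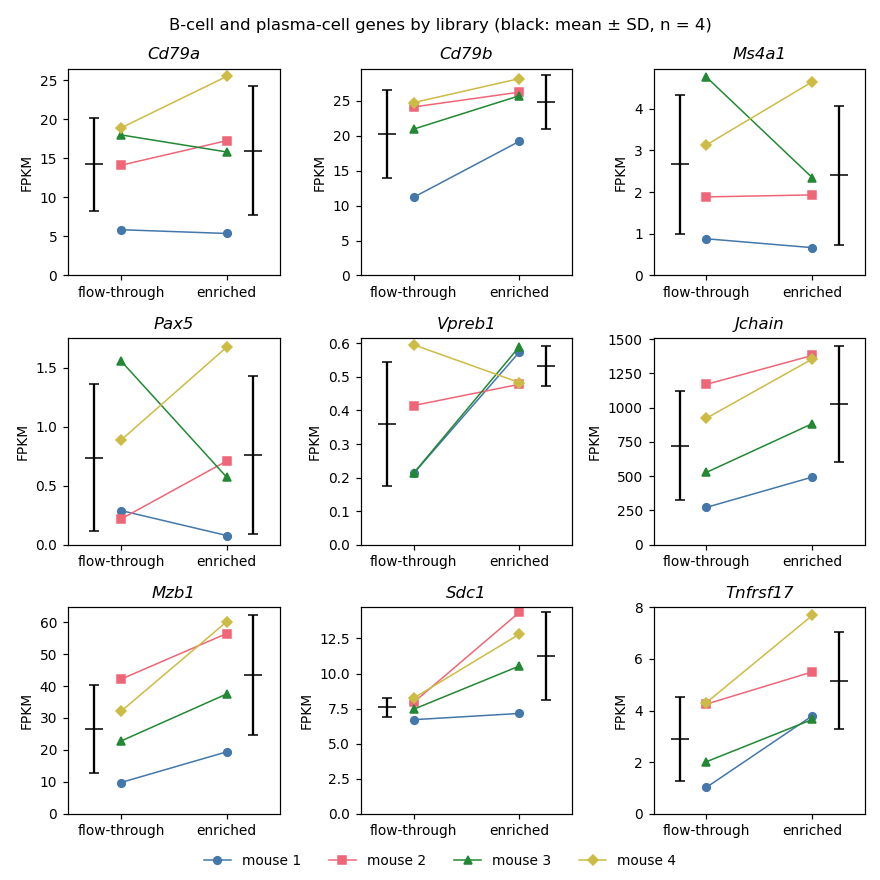
FPKM of the 9 genes in the flow-through and the IL-18Rαhi-enriched library of each mouse, joined by lines, with the mean ± SD of each fraction (n = 4) in black and a separate axis for each gene. The *Jchain* level is higher at the enriched end of all 4 lines, going from 272.1 to 493.1 FPKM in mouse 1 and from 1171 to 1381 in mouse 2, whereas the lines of *Ms4a1* and *Pax5* crossed.

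The antigen receptor chains came first among B-cell genes. *Cd79a* (ENSMUSG00000003379, GRCm38 chr7:24897381-24902197, plus strand) encodes the Igα chain that passes on the signal of the receptor. Its flow-through libraries of mice 1 to 4 were at 5.86, 14.1, 18.0 and 18.9 FPKM, and the enriched libraries at 5.38, 17.3, 15.8 and 25.5. Both libraries of mouse 1 were the lowest, and the enriched over flow-through ratio lay between 0.879 and 1.35. The log2 fold change was 0.10 with an SE of 0.48 (limma, adjusted p = 0.890) and an SE of 0.12 with the block (adjusted p = 0.509). Under T-cell scaling it was -0.21, where the median over all tested genes was -0.33, so that no direction was held.

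*Cd79b* (ENSMUSG00000040592, chr11:106311341-106314762, minus strand) encodes the partner chain Igβ. It was at 11.2, 24.1, 20.9 and 24.7 FPKM in the flow-through and at 19.2, 26.2, 25.7 and 28.2 in the enriched libraries. The enriched library was the higher of each pair, by 1.72 times in mouse 1 and by 1.09 to 1.23 times in the others. The log2 fold change of 0.33 had an SE of 0.24 without the block (limma, adjusted p = 0.333) and of 0.11 with it, where the adjusted p of 0.0499 lay at the threshold. Without mouse 1 the blocked value was 0.19 (adjusted p = 0.0706), and leaving out any other mouse also ended the call, with adjusted p-values of 0.0512 to 0.123. Under T-cell scaling the fractions were level, at -4.2e-05, where the median over all tested genes was -0.33.

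*Ms4a1* (ENSMUSG00000024673, chr19:11249675-11266241, minus strand) encodes CD20, a surface protein that is lost when plasma cells form. The flow-through libraries were at 0.880, 1.88, 4.76 and 3.13 FPKM and the enriched ones at 0.668, 1.93, 2.35 and 4.64. In mouse 3 the enriched library was at 0.493 of its flow-through and in mouse 4 at 1.48. With a log2 fold change of -0.12 (SE 0.43, adjusted p = 0.854; with the block SE 0.20, adjusted p = 0.647), no difference passed the test.

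*Pax5* (ENSMUSG00000014030, chr4:44524757-44710487, minus strand), the factor that commits cells to the B lineage, stayed below the filter of 1 FPKM. Flow-through values were 0.290, 0.217, 1.56 and 0.886 FPKM, and enriched values 0.0775, 0.710, 0.573 and 1.68. This was the most uneven of the 9 genes, with the highest library 21.7 times the lowest, and the enriched library was lower in mice 1 and 3 and higher in mice 2 and 4. On the log2(FPKM + 1) scale the fractions differed by 0.0082, and all 70 arrangements of the 8 libraries gave a difference at least as large (exact two-sided permutation p = 1, where the smallest possible is 0.0286).

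*Vpreb1* (ENSMUSG00000059305, chr16:16868403-16870843, minus strand) encodes a part of the surrogate light chain, which precursor B cells in bone marrow use before they have a light chain. It was at 0.212, 0.415, 0.213 and 0.596 FPKM in the flow-through and at 0.575, 0.478, 0.591 and 0.483 in the enriched libraries. On its longest transcript of 773 bases these values correspond to about 3, 6, 3 and 7 fragments and about 8, 6, 8 and 5 fragments, so that differences of a few fragments set the order. Higher in 3 of 4 mice, it differed by 0.18 on the log2 scale (exact two-sided permutation p = 0.171). This test, like that of *Pax5*, did not pair the libraries by mouse. Its partner in the surrogate light chain, *Igll1*, was at 0 in 2 flow-through libraries and 1 enriched library and reached 0.385 FPKM at most. *Rag1*, which cuts receptor genes in developing lymphocytes, stayed between 0.00832 and 0.0587 FPKM.

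*Jchain* (ENSMUSG00000067149, chr5:88519809-88527891, minus strand) encodes the joining chain of secreted IgM and IgA and ranked 118 of 12166 genes by mean FPKM. It was at 272.1, 1171, 527.6 and 923.4 FPKM in the flow-through and at 493.1, 1381, 883.4 and 1355 in the enriched libraries. Mouse 1 was lowest and mouse 2 highest in both fractions, and the ratio within mice lay between 1.18 and 1.81. The log2 fold change was 0.60 with an SE of 0.49 without the block (limma, adjusted p = 0.390) and of 0.11 with it (adjusted p = 0.0055). The mice differed from each other by more than the fractions did.

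*Mzb1* (ENSMUSG00000024353, chr18:35647267-35649367, minus strand) encodes a chaperone of the endoplasmic reticulum that helps antibody assembly in marginal zone B cells and plasma cells. Flow-through levels were 9.77, 42.1, 22.8 and 32.1 FPKM, and enriched levels were 19.4, 56.5, 37.5 and 60.1. The enriched library was 1.34 to 1.98 times its flow-through, and the log2 fold change of 0.73 had an SE of 0.48 (limma, adjusted p = 0.280), or 0.098 with the block (adjusted p = 0.0018). 

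*Tnfrsf17* (ENSMUSG00000022496, chr16:11313812-11320074, plus strand) encodes BCMA, the receptor for APRIL and BAFF that keeps long-lived plasma cells alive. It was measured at 1.02, 4.25, 2.02 and 4.31 FPKM in the flow-through and at 3.80, 5.50, 3.65 and 7.69 in the enriched libraries. The ratio was 3.71 in mouse 1 and 1.29 to 1.81 in the other mice, and the flow-through value of mouse 1 rests on about 14 fragments. The log2 fold change was 0.72 with an SE of 0.34 (limma, adjusted p = 0.147), or 0.16 with the block (adjusted p = 0.0103).

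*Sdc1* (ENSMUSG00000020592, chr12:8771323-8793715, plus strand) encodes syndecan-1, the heparan sulfate proteoglycan CD138, which is the usual surface marker of plasma cells but is also made by epithelial cells and by some IL-17-producing innate-like T cells. It was at 6.71, 7.94, 7.45 and 8.25 FPKM in the flow-through and at 7.16, 14.4, 10.5 and 12.8 in the enriched libraries. Only the enriched library of mouse 1 lay within the range of the flow-through. The log2 fold change was 0.47 with an SE of 0.19 (limma, adjusted p = 0.0898), or 0.12 with the block (adjusted p = 0.0191). Without that library and without the block it was 0.65 (adjusted p = 0.0114), and without both libraries of mouse 1 it was 0.60 (adjusted p = 0.012). That library is the one that overlapped, so removing it widens the gap by choice and decides nothing. Leaving out any other single library, without the block, gave limma adjusted p-values of 0.113 to 0.210. Leaving out mouse 2, 3 or 4 without the block gave 0.234 to 0.259. The blocked call of *Sdc1* was lost without mouse 2, 3 or 4, at adjusted p-values of 0.0626, 0.066 and 0.0799.

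**Figure D2:**
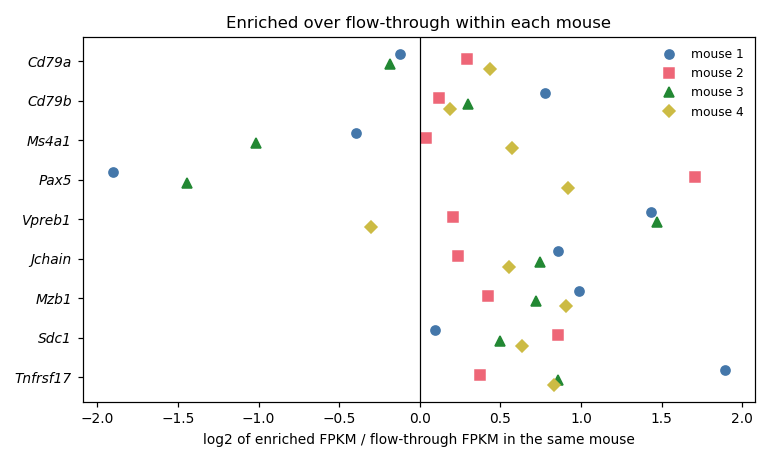
Log2 of the enriched over the flow-through FPKM of the same mouse, with 1 point per mouse for each of the 9 genes and a line at 0 for no difference. All 4 points lie above 0 for *Cd79b*, *Jchain*, *Mzb1*, *Sdc1* and *Tnfrsf17*, whereas *Cd79a*, *Ms4a1* and *Pax5* have 2 mice on either side.

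*Jchain*, *Mzb1* and *Tnfrsf17* passed the blocked test whichever mouse was left out, with adjusted p-values of at most 0.0334 for *Jchain*, 0.0144 for *Mzb1* and 0.0438 for *Tnfrsf17*. With mouse 1, 2, 3 or 4 left out of the blocked fit, 4, 3, 3 and 3 of the 7 genes were higher, against 20.7%, 19.7%, 15.1% and 16.7% of all tested genes. Scaled to the T-cell genes, with the block, 0 of the 7 genes passed in either direction. In that fit 636 of all 12166 tested genes (5.23%) were called higher and 2284 lower. *Jchain* was then at 0.25 (adjusted p = 0.315), *Mzb1* at 0.40 (adjusted p = 0.215), *Sdc1* at 0.16 (adjusted p = 0.645) and *Tnfrsf17* at 0.49 (adjusted p = 0.102). Relative to the median of all genes under that scaling, these 4 values were 0.58, 0.73, 0.49 and 0.82. On the same baseline *Cd79b* was at 0.33, *Cd79a* at 0.12 and *Ms4a1* at 0.0099. With mouse 1 left out of the same fit, 4 of the 7 were higher, against 13% of all tested genes, *Jchain* at 0.39 (adjusted p = 0.0117), *Mzb1* at 0.54 (adjusted p = 0.0055), *Sdc1* at 0.49 (adjusted p = 0.012) and *Tnfrsf17* at 0.45 (adjusted p = 0.0223), where the median over all tested genes was -0.13. With mouse 2, 3 or 4 left out instead, 0 of the 7 were higher, against 3.07%, 2.24% and 3.02% of all tested genes, and *Sdc1* was at -0.027 without mouse 2.

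**Figure D3:**
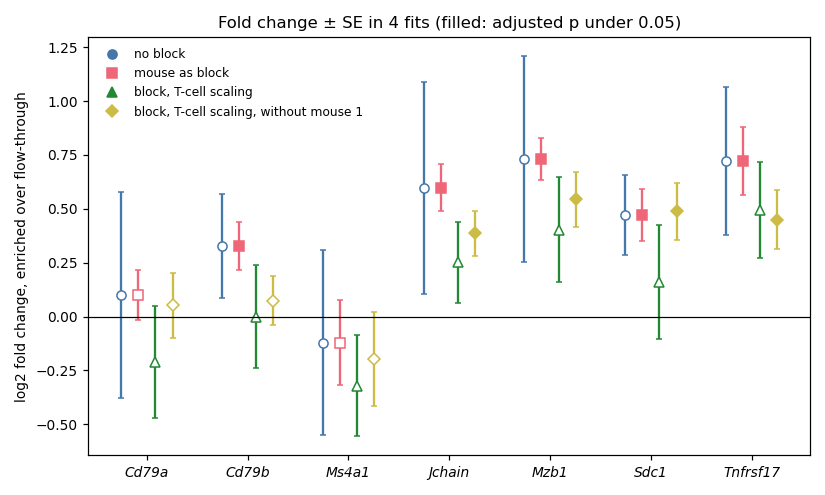
Log2 fold change ± SE of the 7 genes in the limma fit, without the block, with the mouse as a block, with block and T-cell scaling, and with both of these but without mouse 1, where filled points have an adjusted p under 0.05. The block narrows the SE of *Jchain* from 0.49 to 0.11 at the same fold change, T-cell scaling lowers the fold change to 0.25, and *Cd79a* and *Ms4a1* are open points in all 4 fits.

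By mean FPKM, a scale per length, the order ran *Jchain*, *Mzb1*, *Cd79b*, *Cd79a*, *Sdc1*, *Tnfrsf17*, *Ms4a1*, *Pax5* and *Vpreb1*. Only the first step was clear of the spread, since the lowest *Jchain* library, at 272.1 FPKM, lay above the highest *Mzb1* library at 60.1. Each of the other neighbours overlapped in level. Relative to *Cd3e*, a chain of the T-cell receptor complex, the FPKM ratio in a library was 1.99 to 5.94 for *Jchain*, 0.0217 to 0.103 for *Cd79a* and 0.00269 to 0.0256 for *Ms4a1*. The ratio to *Cd3e* was higher in the enriched library in 4 of 4 mice for *Tnfrsf17* and in 3 of 4 for *Jchain*, *Mzb1* and *Sdc1*. For *Cd79a* and *Cd79b* it was higher in 2 of 4 mice, and for *Ms4a1* in 1 of 4.

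The ratios of *Mzb1* and *Igkc* to *Jchain* varied little between libraries, and the ratios of *Jchain* to mature B-cell genes varied more. *Mzb1* was at 0.0347 to 0.0444 of the *Jchain* level in the 8 libraries, and *Jchain* at 0.0736 to 0.0849 of *Igkc*, the κ light chain constant region. The *Jchain* to *Igkc* ratio was lower in the enriched fraction in 4 of 4 mice, at 0.0779 ± 0.0039 against 0.0831 ± 0.0027 (SD, n = 4 each). *Jchain* over *Cd79a* ran from 29.3 to 91.7 and *Jchain* over *Ms4a1* from 110.9 to 738.6, each higher in the enriched library in 3 of 4 mice. *Sdc1* over *Jchain* ranged from 0.00679 to 0.0247.

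Correlations across the 8 libraries were taken on the log2 scale. *Jchain* and *Mzb1* had a Pearson r of 0.99, and *Tnfrsf17* had an r of 0.91 with each of them. *Ms4a1* had an r of 0.94 with *Pax5* and 0.91 with *Cd79a*, but 0.49 with *Jchain*. *Cd79a* had an r of 0.78 with *Jchain*, 0.80 with *Mzb1*, 0.81 with *Cd79b* and 0.81 with *Pax5*, but 0.65 with *Sdc1* and 0.61 with *Tnfrsf17*. *Cd79b* had an r of 0.93 with *Jchain* and 0.60 with *Ms4a1*. *Vpreb1* had an r of -0.06 with *Ms4a1*. These values describe 8 libraries that share 4 mice and differ in the level of T-cell genes, and no test was made.

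The mouse took up over 50% of the spread of 7 of the 9 genes, the others being *Vpreb1* and *Sdc1*. It accounted for 96.3% of the sum of squares of *Cd79a* on the log2 scale, 86.1% of *Ms4a1*, 82.8% of *Jchain* and 76.7% of *Mzb1*, against a median of 38.6% over all tested genes. The fraction accounted for 0.535%, 0.954%, 14.9% and 21.7%, against a median of 37.3%. The fraction took a larger share than the mouse in *Sdc1*, at 46.1% against 40.4%, and in the low *Vpreb1*, at 35.4% against 16.5%. The largest part of *Vpreb1* fell to the rest, at 48.1%.

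**Figure D4:**
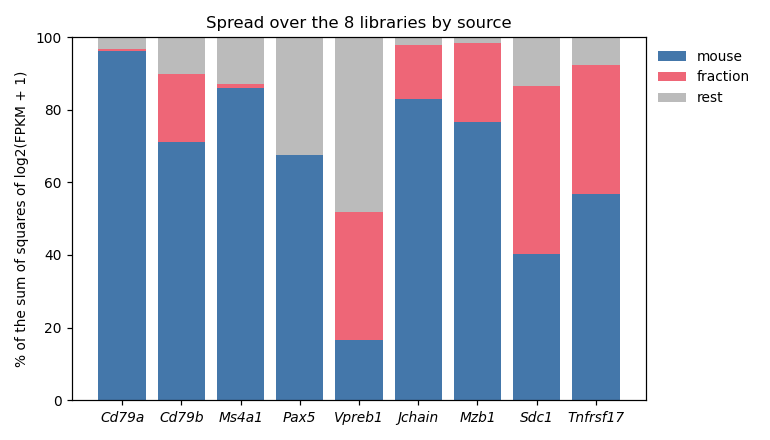
Share of the sum of squares of log2(FPKM + 1) over the 8 libraries that fell to the mouse, to the fraction and to the rest, as stacked bars that add to 100% for each of the 9 genes. The mouse part is largest for *Cd79a* at 96.3% and smallest for *Vpreb1* at 16.5%.

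The gene whose level was most like each of the tested genes was found by Pearson r on the log2 scale. Immunoglobulin and T-cell receptor segments, the genes of the set itself and genes named Gm followed by digits were left out of the search. *Ms4a1* was closest to *Fcmr*, the IgM Fc receptor of B cells, with an r of 0.98. *Jchain* was closest to *Tpd52* (r = 0.99), *Mzb1* to *Slc31a2* (0.99), *Tnfrsf17* to 1700026L06Rik (0.99), *Cd79a* to *Dgke* (0.97) and *Cd79b* to *Arid5a* (0.997). *Sdc1* was closest to *Lyn*, a Src family kinase of B cells and myeloid cells, with an r of 0.98, and it was also close to *Fcgr1*, a high-affinity Fc receptor of myeloid cells, with an r of 0.97. The highest of so many coefficients is a description and was not tested.

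RefSeq start sites were used to show the sequence upstream of *Jchain* and *Tnfrsf17*, which rose within mice, beside *Cd79a*, which did not. A promoter sequence was matched for 6 of the 9 genes. E boxes, written CANNTG and bound by E2A and related factors in B cells, are in capitals in the sequences below, which run 5′ to 3′ on the strand of the gene on GRCm38.p6. The stretches are chr5:88527898-88528147 (minus strand) for *Jchain*, chr16:11313559-11313808 (plus strand) for *Tnfrsf17* and chr7:24897247-24897380 (plus strand) for *Cd79a*, where the stretch ends at the start of the gene in GENCODE and so leaves out 1 of its E boxes.
Jchain: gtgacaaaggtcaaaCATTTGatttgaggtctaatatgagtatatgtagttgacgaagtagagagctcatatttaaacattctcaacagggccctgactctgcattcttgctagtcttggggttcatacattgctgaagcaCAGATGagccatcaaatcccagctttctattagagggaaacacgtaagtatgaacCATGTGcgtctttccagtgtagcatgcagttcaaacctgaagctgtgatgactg
Tnfrsf17: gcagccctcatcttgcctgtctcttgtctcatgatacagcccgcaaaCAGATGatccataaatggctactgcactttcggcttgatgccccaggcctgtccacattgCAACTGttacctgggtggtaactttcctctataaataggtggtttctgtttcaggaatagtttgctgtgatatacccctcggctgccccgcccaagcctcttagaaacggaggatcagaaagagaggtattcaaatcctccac
Cd79a: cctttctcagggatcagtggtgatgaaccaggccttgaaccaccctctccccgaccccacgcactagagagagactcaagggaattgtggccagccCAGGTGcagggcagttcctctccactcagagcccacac

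In the 250 bases upstream of the RefSeq start, *Jchain* had 3 E boxes, *Tnfrsf17* had 2 and *Cd79a* had 2, and 66.2% of 32851 promoter windows of that length held at least 1. The CAGGTG form was found upstream of *Cd79a* and *Vpreb1* and in 17.2% of all windows. The octamer ATGCAAAT (in 1.60% of windows) and the palindromic motif of EBF1 (in 0.779%) had no match in the 6 windows, and GAGGAA, the core of PU.1 sites (in 23.3%), had a match in 4. Both strands were searched, and every CAGGTG is also an E box. A match only describes the letters.

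The other genes of the B lineage were taken as lists. Of 14 genes of receptor signaling and coreceptors, 13 were tested, and 3 were higher and 2 lower without the block, or 5 and 4 with it. *Blk*, a Src family kinase of B cells that is also used by IL-17-producing T cells, rose from a flow-through mean of 2.17 ± 0.960 FPKM to an enriched mean of 10.7 ± 3.74 FPKM, or by 1.86 on the log2 scale (SE 0.32, adjusted p = 0.0051). *Cd22*, an inhibitory coreceptor, rose from 8.31 ± 2.27 to 17.0 ± 1.74 FPKM, by 0.98 (adjusted p = 0.0076), and *Pik3ap1*, an adaptor for PI3 kinase, rose by 1.10. *Btk*, a kinase of B and myeloid cells, fell by 1.14, and the tetraspanin *Cd81* fell by 0.82, which did not pass under T-cell scaling (adjusted p = 0.0667).

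Of 12 mature B-cell surface genes, 11 were tested, and 2 were higher and 0 lower without the block, or 4 and 2 with it. They were *Cd83*, an activation antigen (log2 fold change 1.22, adjusted p = 0.0093), and *Cd180*, a Toll-like receptor homologue of B and myeloid cells (0.98, adjusted p = 0.0392). Of 12 B-lineage transcription factors, 10 were tested, with 2 higher and 2 lower, or 4 and 3 with the block. *Irf4*, which drives plasma-cell formation and is also induced in activated T cells, rose from 8.09 ± 2.34 to 18.1 ± 2.20 FPKM (1.10, adjusted p = 0.0063), and *Ikzf3* rose by 0.95. *Bcl11a*, which is used in B-cell and erythroid development, fell by 1.38, and *Bach2*, which holds back plasma-cell formation and effector T-cell differentiation, fell by 1.11. Under T-cell scaling 1 surface gene was higher and 1 lower, with *Cd180* at an adjusted p of 0.0692. *Ebf1* had a mean under 1 FPKM, at 0.438 ± 0.509 and 0.527 ± 0.585.

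Of the 10 precursor B genes, 4 reached the filter, with 1 higher and 1 lower, or 1 and 2 with the block. They were *Akap12* (log2 fold change 0.50, adjusted p = 0.0186), a scaffold protein of many tissues, and *Erg* (-0.98, adjusted p = 0.013), a transcription factor of stem cells and endothelium as well. Under T-cell scaling 0 of the 4 were higher and 2 lower, with *Akap12* at an adjusted p of 0.166.

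All 15 genes of plasma-cell differentiation and secretion were tested, and 6 were higher and 0 lower, or 12 higher and 1 lower with the block, at a median log2 fold change of 0.52. *Slamf7*, which plasma cells share with NK cells and cytotoxic T cells, rose from 18.6 ± 5.76 to 54.9 ± 5.44 FPKM (1.56, adjusted p = 0.0020). *Prdm1*, which encodes BLIMP-1 of plasma cells and effector T cells, rose from 2.33 ± 0.776 to 6.40 ± 0.774 (1.18, adjusted p = 0.0032). The chaperone partner *Sdf2l1* rose by 0.75 (adjusted p = 0.0121) and *Glcci1* by 0.52 (adjusted p = 0.0135). *Xbp1*, the factor of the secretory program, was at 70.6 ± 25.0 and 112.3 ± 25.8 FPKM (0.70, adjusted p = 0.0856, or 0.0020 with the block). Under T-cell scaling 2 of the 15 were higher.

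*Tnfrsf17* belongs to the BAFF and APRIL system of ligands and receptors. Of its 5 listed genes, *Tnfrsf17* included, 4 were tested, with 1 higher and 0 lower, or 3 higher with the block, which are *Tnfrsf17*, *Tnfrsf13b* and *Tnfrsf13c*. *Tnfrsf13c*, the BAFF receptor of mature B cells, rose from 2.79 ± 1.03 to 5.96 ± 0.347 FPKM (0.93, adjusted p = 0.0139). *Tnfrsf13b*, which encodes TACI, was at 15.5 ± 6.30 and 20.3 ± 5.62 FPKM (0.41, adjusted p = 0.334, or 0.0102 with the block). The APRIL gene *Tnfsf13* was at 3.87 ± 0.774 and 4.54 ± 2.38 FPKM, a log2 difference of 0.10 (adjusted p = 0.814) that turned to -0.17 under T-cell scaling.

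Of the 12 immunoglobulin constant regions, 11 were tested, and 0 passed in either direction, or 6 higher and 1 lower with the block. Immunoglobulin genes took 2.61% to 10.7% of summed FPKM in the flow-through and 4.57% to 13.8% in the enriched libraries. *Ighm* was at 1749, 7896, 3602 and 6618 FPKM in the flow-through, and the enriched libraries were at 3513, 10726, 6309 and 10295, which placed the mice in the same order as *Jchain* did in both fractions.

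**Figure D5:**
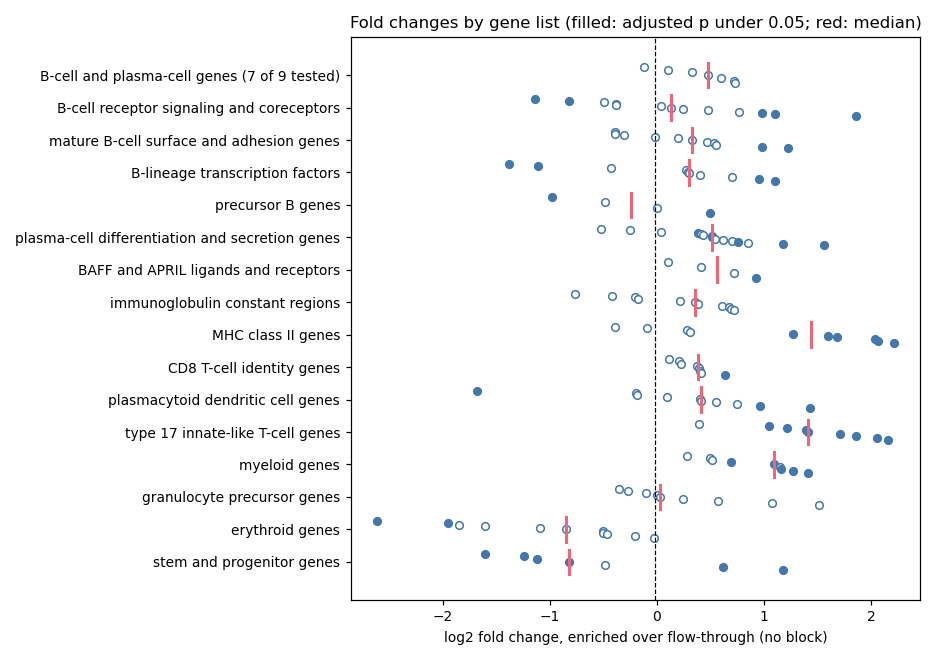
Log2 fold changes without the block of the tested genes of each list, 1 point per gene, filled where the adjusted p is under 0.05, with the list median in red and the median of all tested genes as a dashed line at -0.02. The B-cell and plasma-cell genes have a median of 0.47 and no filled point, the plasma-cell list a median of 0.52 with 6 filled points, and the MHC class II list a median of 1.44 with 6.

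Markers of other cell types also differed between the fractions. Of 9 myeloid genes, 5 were higher without the block and 8 with it (2 under T-cell scaling), and their summed level was 201.0 to 665.3 FPKM in the flow-through and 596.6 to 1364 in the enriched libraries, with *Lyz2* at 197.1 ± 107.6 and 505.9 ± 221.9. Of 10 MHC class II genes, which B cells share with dendritic cells and macrophages, 6 were higher, with sums of 248.1 to 742.8 and 854.4 to 2383 FPKM. With the block, 7 of them were higher and 1 (*H2-Ob*) was lower. Of 10 tested genes of plasmacytoid dendritic cells, 2 were higher (*Runx2* and *Siglech*) and 1 was lower (*Ccr9*), or 6 and 1 with the block. Of 9 tested type 17 innate-like T-cell genes, 8 were higher, or 9 with the block, with sums of 7.38 to 16.5 and 39.0 to 74.9 FPKM. *Blk* is on that list too.

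Of 11 erythroid genes, 2 were lower, or 8 with the block. Of 7 stem and progenitor genes, 2 were higher and 4 lower, or 2 and 5 with the block, and *Myb* fell by 1.61. Of 9 granulocyte precursor genes, 0 passed, or 2 higher and 1 lower with the block, with sums of 596.3 to 3417 and 619.1 to 3883 FPKM. Of the 8 CD8 T-cell identity genes, 1 (*Zap70*) was higher. Under T-cell scaling, 2 myeloid, 6 MHC class II, 2 plasmacytoid dendritic cell and 8 type 17 genes were higher, and 2 plasmacytoid dendritic cell, 1 erythroid and 5 stem and progenitor genes were lower, with 0 calls among the granulocyte precursor and CD8 T-cell identity genes. The part of these cell types in the values of the B-cell and plasma-cell genes was not tested.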

How the data were processed

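The 9 genes and the gene lists were chosen with earlier results of these data known. The authors aligned reads to mm10 with TopHat, and the deposited FPKM values per gene were made with Cufflinks 2.1.1, per the labels, with corrections for multiply mapped reads and fragment bias. The library kit marks strand. All columns of the table were FPKM of the 8 libraries. Symbols were matched to GENCODE vM21 gene models (GRCm38) and promoters to RefSeq.

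For the 12166 genes averaging 1 FPKM or more, log2(FPKM + 1) was fitted by limma 3.58.1 (R 4.3.3) with a variance trend, Benjamini-Hochberg adjustment and the threshold 0.05. The pseudocount understates the change of low genes. *Pax5* and *Vpreb1*, under the filter, had exact two-sided permutation tests that did not pair the libraries by mouse. The fit without the block was tested on simulated data that held no mouse effect, and the blocked fit was not tested in this way. Per the labels, both fractions were taken from each mouse. Deviations from the fraction means of same-numbered libraries correlated at 0.66, 0.589, 0.308 and 0.471 over genes. Libraries of unlike number ran from -0.60 to 0.412, and the highest, flow-through 2 with enriched 4, lay above same-numbered pair 3. The number was taken as the mouse, and blocked values are printed. Depth was estimated from the step between low FPKM values. The rule for named genes took all 9 genes, up to 4 called genes per direction of each list with the largest change, 11 listed partners and the 3 most alike genes, and not all of these are printed. The genes *Rag1*, *Cd3d*, *Cd3e*, *Cd3g*, *Cd247*, *Cd8a*, *Cd8b1*, *Lck*, *Igkc* and *Ighm* were added after their values were seen. *Irf8* was not analysed here. A partner named by the rule is not reported here.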

Additional observations from a re-analysis of the deposited data

How the results depend on the processing

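When mouse was a block, 5 of the 7 tested genes were called higher instead of 0, against 22.2% of all tested genes. With mouse 1, 2, 3 or 4 left out of that fit, 4, 3, 3 and 3 were called higher, against 20.7%, 19.7%, 15.1% and 16.7%. With T-cell scaling, block and no mouse 1, 4 were called higher, against 13%. Without mouse 2, 3 or 4 instead, 0 were, against 3.07%, 2.24% and 3.02%. These fits without a mouse were chosen after seeing the data, like T-cell scaling with the block, which called 0. Without the block, leaving out libraries gave 0 to 1 calls, and the other settings gave 0. The 1 call was *Sdc1*, without enriched replicate 1 or without mouse 1, where 1560 and 1790 of all 12166 tested genes were called higher. No setting called any of them lower.

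*Cd79a* turned to -0.21 under T-cell scaling with or without the block, to -0.0026 with the block and no mouse 4, and ran from -0.24 to 0.52 with libraries left out. *Cd79b* turned to -4.2e-05 under T-cell scaling with or without the block. With T-cell scaling, block and no mouse 2, 3 or 4, *Cd79a* was at -0.35, -0.13 and -0.41, *Cd79b* at -0.019, -0.0040 and -0.051, and *Sdc1* at -0.027 without mouse 2. *Ms4a1* turned to 0.10 with the block and no mouse 3, and ran from -0.41 to 0.18 with libraries left out. *Pax5* turned to -0.059 with a pseudocount of 0.1, and ran from -0.22 to 0.22. *Tnfsf13* turned to -0.17 under T-cell scaling, and ran from -0.15 to 0.33. Leaving out the flow-through or the enriched library of mouse 1, respectively, *Cd79b* was at 0.08 and 0.44, *Jchain* at 0.20 and 0.91, *Mzb1* at 0.33 and 1.06 and *Tnfrsf17* at 0.44 and 0.83. The cause was not tested.

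Over all genes, 1720 were called higher and 1664 lower, 2705 and 2763 with the block, 542 and 1085 under T-cell scaling (33.3% of calls higher, against 50.8%), and 2060 and 1206 after scaling without immunoglobulin and globin genes (63.1% higher). Without both libraries of mouse 3, 452 and 294 were called.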

Other observations

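The BAFF gene *Tnfsf13b*, under the filter, was at 0.613, 0.453, 0.402 and 0.365 FPKM in the flow-through and at 1.11, 1.28, 1.11 and 0.916 in the enriched libraries, without overlap and higher in 4 of 4 mice. Among the 12166 tested genes, to which it does not belong, 16.4% were higher without overlap. *Ighd*, the constant region of IgD on resting B cells, was lower in the enriched library of 4 of 4 mice, at 6.36 ± 3.35 and 3.23 ± 1.77 FPKM, whereas *Ighm* was higher in 4 of 4. *Cr2*, the complement receptor of follicular and marginal zone B cells, was also lower in 4 of 4 mice, at 1.44 ± 0.961 and 0.679 ± 0.448 FPKM. *Ly6d* was higher in 4 of 4 mice, at 25.9 ± 12.4 and 35.8 ± 13.0 FPKM. *Tnfsf13b* was one of the listed partners, whereas *Ighd*, *Ighm*, *Cr2* and *Ly6d* were chosen after their values were seen. No test was made of the pattern.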
